A study of Mus musculus with 8 samples.

Results

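Interneurons of the hippocampus were followed through 10 genes that mark GABA synthesis and interneuron subtypes, namely Gad1, Gad2, Slc32a1, Pvalb, Sst, Vip, Cck, Npy, Reln and Lhx6. They were chosen by gene symbol, and all 10 were found among the 20802 genes with values. RNA-sequencing had been performed on the whole hippocampus of 8 male C57BL/6 mice, 4 of the Anesthesia group and 4 Control mice. Anesthesia mice had received ketamine (35 mg per kg, i.p.) once a day for 5 days from PND16, and Control mice are described as saline-injected in the protocol but as untreated in their sample titles. Age was given as PND28 in both groups. The values are normalized counts, that is gene-level read estimates divided by size factors, and limma was run on log2(value + 1) of the 18865 genes whose mean reached 10. All 10 genes passed that filter.

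GABAergic interneurons are a minority of hippocampal neurons that restrain the firing of pyramidal and granule cells. They make GABA from glutamate and load it into vesicles, and their subtypes are told apart by a calcium-binding protein or a neuropeptide and by where their axons contact the target cell. Parvalbumin cells inhibit the soma and the axon initial segment with fast timing, somatostatin cells inhibit distal dendrites, and many VIP cells inhibit other interneurons. In bulk tissue, fewer cells of a type and less RNA per cell cannot be told apart.

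None of the 10 genes differed between the Anesthesia and Control groups after adjustment. The limma adjusted p was under 0.05 for 0 of the 10, as for 0 of all 18865 genes (0%), and limma voom also called 0. The smallest limma adjusted p of any gene was 0.381, so the 0 among the 10 does not set them apart. With DESeq2, the paper did report genes with an adjusted p under 0.05 in the same comparison. Without adjustment p was under 0.05 for 1 of the 10, which was Gad1, and for 8.02% of all genes tested (1513 in limma, 1510 in limma voom). The groups overlapped in all 10 genes, while the groups did not overlap in 5.04% of all genes tested (2.81% higher and 2.23% lower in the Anesthesia mice). The log2 fold changes were between -0.14 and 0.16, with 4 genes above 0 and 6 below, where 49.2% of all genes tested were above 0, and the median over the 10 was -0.036 against -0.0036 over all genes tested. The samples were 8 separate mice, and the smallest two-sided p of an exact permutation test with 4 mice against 4 is 0.0286.

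**Figure D1:**
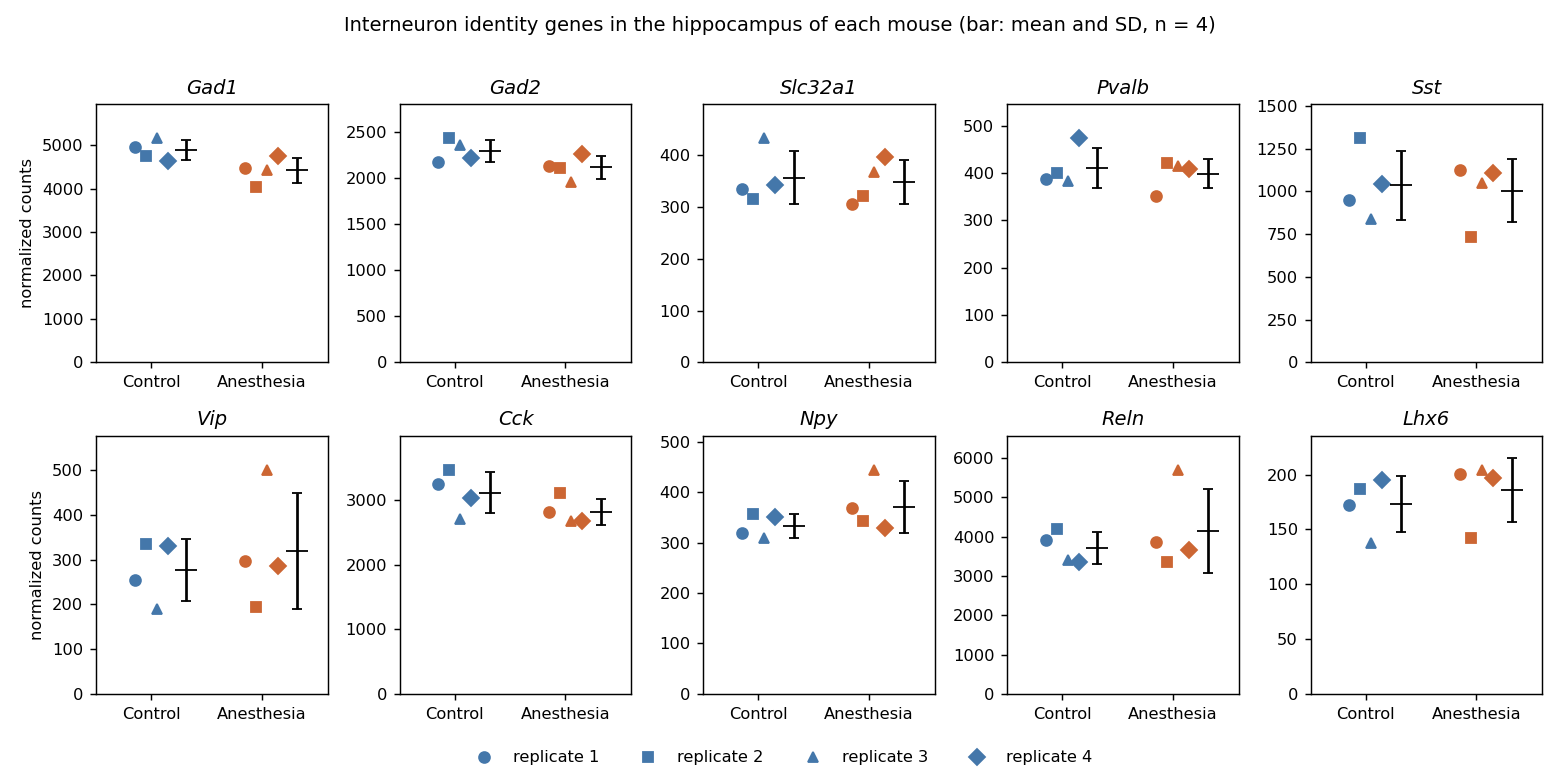
Normalized counts of each of the 10 genes (vertical axes, from 0) in the 4 Control mice (blue) and the 4 Anesthesia mice (orange), with a marker shape for each replicate number and black bars for the mean and SD. The groups overlap in every panel, and Anesthesia replicate 3 is the highest of the 8 mice for Vip, Npy, Reln and Lhx6.

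Gad1 and Gad2 encode the enzymes GAD67 and GAD65, which make GABA from glutamate. Gad1 (ENSMUSG00000070880, chromosome 2, 70553072 to 70602014 on GRCm38) had 4474, 4027, 4430 and 4737 normalized counts in Anesthesia replicates 1 to 4, and 4966, 4759, 5160 and 4630.5 in Control replicates 1 to 4. Of the 4 Anesthesia mice, 3 lay below the lowest Control mouse, and Anesthesia replicate 4 lay among the Control mice. The group means were 4417 ± 293.2 and 4879 ± 233.0 (± SD, 4 mice each), or a log2 difference of -0.14 (standard error, SE, 0.062, 95% interval -0.28 to -0.0071, limma adjusted p = 0.622), that is 0.905-fold. The unadjusted limma p of Gad1 was 0.041, and the two-sided exact permutation p was 0.0571. The log2 value of Gad1 stayed lower in the Anesthesia mice with each mouse left out (-0.18 to -0.10), but its unadjusted p passed 0.05 only without Anesthesia replicate 4 or Control replicate 4, and not with any of the other 6 mice left out. Gad1 overlaps the antisense gene Gad1os, and whether the reads were assigned by strand is unsettled.

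Gad2 (ENSMUSG00000026787, chromosome 2, 22622205 to 22693874) had 2136, 2117, 1956 and 2270.3 normalized counts in the Anesthesia mice and 2177, 2438, 2364 and 2223 in the Control mice, in the order of replicates 1 to 4. Here too 3 of the 4 Anesthesia mice were below the lowest Control mouse. The means were 2119.7 ± 128.8 and 2301 ± 121.3 (± SD, 4 mice each), and the log2 fold change was -0.12 (SE 0.064, limma adjusted p = 0.661; exact permutation p = 0.114, two-sided). Its 95% interval, -0.26 to 0.023, included 0. The ratio of Gad1 to Gad2 normalized counts was 2.09 ± 0.148 in Anesthesia and 2.12 ± 0.141 in Control mice (± SD, 4 mice each).

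Slc32a1 encodes the vesicular GABA transporter VGAT, which all GABAergic neurons use to fill synaptic vesicles. Slc32a1 (ENSMUSG00000037771, chromosome 2, 158610767 to 158615748) had 305.4, 321.6, 368.9 and 397.7 normalized counts in the Anesthesia mice and 336.1, 316.6, 433.6 and 342.9 in the Control mice. The mice of both groups were interleaved, with Control replicate 3 highest and Anesthesia replicate 1 lowest. The log2 fold change of Slc32a1 was -0.034 (SE 0.12, 95% interval -0.30 to 0.24, limma adjusted p = 0.947), and it ran from -0.0998 to 0.063 with 1 mouse left out at a time. It was -0.24 in the libraries rich in choroid plexus RNA (1 Anesthesia and 3 Control mice) and 0.10 in the others (3 and 1), each resting on an arm of 1 mouse. The gene overlaps the antisense gene Gm14205.

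Choroid plexus RNA differed widely between the libraries. All 12 choroid plexus markers had lower means in the Anesthesia group, 0 of them at an unadjusted limma p under 0.05, and their summed level was 524.4 to 58222.9 normalized counts in the Anesthesia mice and 687.7 to 67873.7 in the Control mice. The marker mean was above its average over the 8 mice in 1 Anesthesia mouse and 3 Control mice, and below it in 3 Anesthesia mice and 1 Control mouse. The log2 difference of Gad1 was -0.11 in the first set and -0.18 in the second, each without a test because 1 arm is a single mouse. With the choroid plexus markers as a covariate, the log2 fold change of Gad1 was -0.14 and its unadjusted limma p was 0.0889. With a correction for GC content and length, Gad1 had a log2 fold change of -0.13, which did not pass without adjustment either.

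Pvalb encodes parvalbumin, the calcium-binding protein that defines fast-spiking basket and chandelier cells. Pvalb (ENSMUSG00000005716, chromosome 15, 78191114 to 78206400) had 352.1, 420.4, 414.5 and 407.3 normalized counts in Anesthesia replicates 1 to 4. In Control replicates 1 to 4 it had 386.2, 398.8, 382.2 and 473.4. Control replicate 4 was the highest and Anesthesia replicate 1 the lowest of the 8 mice, and the other 6 lay between 382.2 and 420.4 normalized counts. The means of Pvalb were 398.6 ± 31.5 with and 410.2 ± 42.8 without anesthesia (± SD, 4 mice each). Its log2 fold change was -0.039 (SE 0.097, limma adjusted p = 0.924; exact permutation p = 0.714, two-sided), smaller than the spread between mice. The 95% interval of the fold change was 0.839-fold to 1.13-fold. The direction was not stable, since leaving out 1 mouse at a time gave -0.071 to 0.031, with values above 0 without Anesthesia replicate 1 or Control replicate 4. The difference was -0.24 in the libraries rich in choroid plexus RNA and 0.10 in the others, again with 1 mouse in an arm.

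Lhx6 encodes a LIM homeobox transcription factor that parvalbumin and somatostatin cells keep from their origin in the medial ganglionic eminence (MGE). Lhx6 (ENSMUSG00000026890, chromosome 2, 36081953 to 36105408) had 201 normalized counts in Anesthesia replicate 1, 142.2 in replicate 2, 204.5 in replicate 3 and 196.5 in replicate 4. The Control mice had 172.5, 186.6, 137.5 and 195.1, so that 3 Anesthesia mice lay above the highest Control mouse, but Anesthesia replicate 2 lay among the lowest with Control replicate 3. The log2 fold change of Lhx6 was 0.10 (SE 0.15, limma adjusted p = 0.861), and it was -0.0032 without Control replicate 3 and 0.23 without Anesthesia replicate 2.

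**Figure D2:**
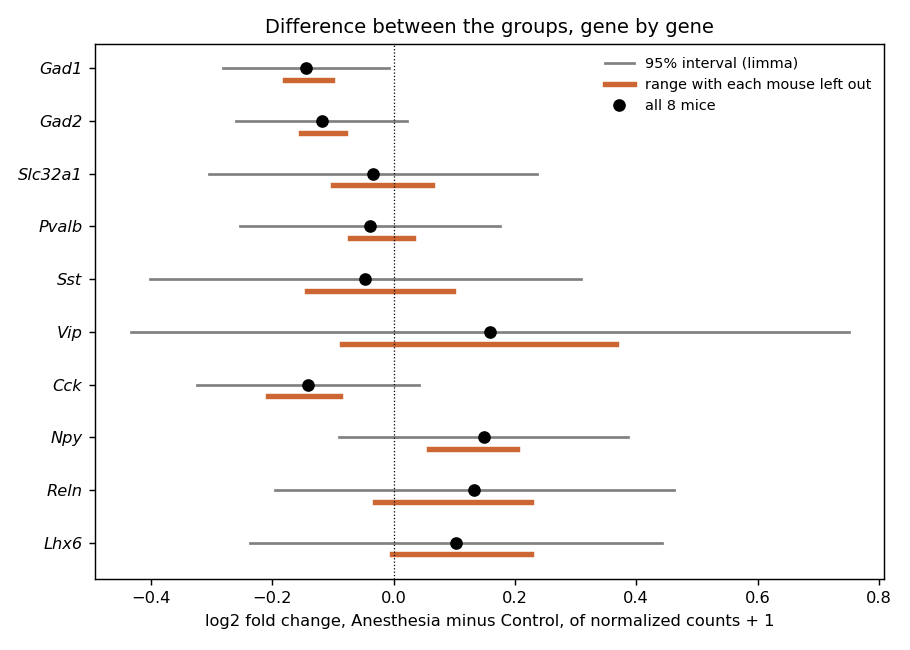
Log2 fold change of each gene (horizontal axis, Anesthesia minus Control, on log2 of normalized counts + 1), with the limma 95% interval in gray and the range with 1 mouse left out at a time in orange. The interval is widest for Vip, from -0.43 to 0.75, and only that of Gad1 lies to one side of 0.

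Somatostatin, encoded by Sst, is released by dendrite-targeting interneurons such as the O-LM cells of CA1. Sst (ENSMUSG00000004366, chromosome 16, 23889573 to 23890958) had 1126, 732.5, 1050.2 and 1109 normalized counts in the Anesthesia mice and 952.5, 1312, 836.6 and 1046 in the Control mice. The lowest value came from Anesthesia replicate 2 and the highest from Control replicate 2, and the other Anesthesia mice lay within the Control range. The group means of Sst were 1004.4 ± 184.1 and 1037 ± 202.6 (± SD, 4 mice each), with a log2 fold change of -0.047 (SE 0.16, limma adjusted p = 0.946). Its direction turned without Anesthesia replicate 2 (0.098) and without Control replicate 2 (0.073).

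Vip, which encodes vasoactive intestinal peptide, marks interneurons that often target other interneurons. Vip (ENSMUSG00000019772, chromosome 10, 5639218 to 5647617) had 297.4, 195.0, 500.7 and 284.9 normalized counts in the Anesthesia mice and 255.1, 335.4, 188.9 and 329.6 in the Control mice. It was the most variable of the 10 genes, with a 2.65-fold range over the 8 mice and a coefficient of variation of 33.0%. The log2 fold change of Vip was 0.16 (SE 0.27, limma adjusted p = 0.881), and it was -0.085 without Anesthesia replicate 3 and -0.013 without Control replicate 3.

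The promoters of Sst and Vip are shown because both peptide genes are textbook targets of cAMP signaling, with that of Pvalb for comparison. The RefSeq windows on GRCm38.p6 hold the 250 bases before the start site, 5′ to 3′, and each of the 10 genes had at least 1 window, 13 windows in all. Capitals mark the cAMP response element TGACGTCA or its core TGACG, searched on both strands, with the core also counted inside the full element.
Sst promoter (chr16:23890845-23891094, minus strand): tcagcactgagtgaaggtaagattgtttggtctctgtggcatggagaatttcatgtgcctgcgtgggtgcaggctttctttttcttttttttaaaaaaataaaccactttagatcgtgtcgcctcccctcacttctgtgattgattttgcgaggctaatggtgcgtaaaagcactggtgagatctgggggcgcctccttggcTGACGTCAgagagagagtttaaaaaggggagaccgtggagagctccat
Vip promoter (chr10:5638968-5639217, plus strand): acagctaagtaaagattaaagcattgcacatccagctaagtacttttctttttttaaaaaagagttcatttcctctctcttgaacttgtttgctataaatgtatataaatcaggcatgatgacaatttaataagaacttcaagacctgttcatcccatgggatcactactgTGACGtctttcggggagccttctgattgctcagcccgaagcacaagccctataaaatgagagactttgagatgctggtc
Pvalb promoter (chr15:78206401-78206650, minus strand): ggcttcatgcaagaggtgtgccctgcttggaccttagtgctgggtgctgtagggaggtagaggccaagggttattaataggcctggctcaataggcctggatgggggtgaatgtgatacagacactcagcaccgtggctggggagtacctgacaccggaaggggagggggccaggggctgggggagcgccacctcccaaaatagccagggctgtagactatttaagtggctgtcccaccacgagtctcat
The full element was found in 1 of the 10 genes, Sst, and in 1.55% of all 32851 windows of this length. The core was found in 4 of the 10 genes, Sst, Vip, Cck and Gad2, and in 17.8% of all windows. The counts for the 10 genes are per gene, over their 13 windows, while both percentages are per window. Neither was found in the windows of Pvalb. A match of letters is not a measured binding site, and neither Sst nor Vip passed the test between the groups (log2 fold changes -0.047 and 0.16).

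Cholecystokinin, encoded by Cck, is made by a class of basket cells and, at lower levels per cell, by pyramidal neurons. Cck (ENSMUSG00000032532, chromosome 9, 121489824 to 121495694) had 2810.1, 3108, 2667 and 2681 normalized counts in the Anesthesia mice and 3250.0, 3469, 2709 and 3030 in the Control mice. Of the Anesthesia mice, 2 lay below the lowest Control mouse. The means were 2817 ± 204.8 and 3114 ± 324.5 (± SD, 4 mice each), with a log2 fold change of -0.14 (SE 0.083, limma adjusted p = 0.671; exact permutation p = 0.20, two-sided). With any 1 mouse left out the value stayed below 0, between -0.21 and -0.088.

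Npy encodes neuropeptide Y, found in neurogliaform, ivy and many somatostatin cells. Npy (ENSMUSG00000029819, chromosome 6, 49822710 to 49829507) had 368.4, 343.8, 444.9 and 328.7 normalized counts in the Anesthesia mice and 318.5, 356.0, 308.4 and 350.2 in the Control mice. Of the Anesthesia mice, 2 lay above the highest Control mouse, and Anesthesia replicate 3 was the highest of all. The log2 fold change of Npy was 0.15 (SE 0.11, 95% interval -0.090 to 0.39, limma adjusted p = 0.723), and it was 0.059 without Anesthesia replicate 3.

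Reln encodes reelin, a secreted glycoprotein that comes from Cajal-Retzius cells and from interneurons of the neurogliaform and O-LM types. Reln (ENSMUSG00000042453, chromosome 5, 21884454 to 22344702) had 3873, 3342, 5702 and 3657 normalized counts in the Anesthesia mice and 3922.5, 4190.4, 3393 and 3346 in the Control mice. Anesthesia replicate 3 alone exceeded the Control mice, and Anesthesia replicate 2 was the lowest of the 8. The log2 fold change of Reln was 0.13 (SE 0.15, limma adjusted p = 0.810). Reln overlaps 7 annotated genes, 4 of them on the opposite strand. Its value was -0.031 without Anesthesia replicate 3 and -0.0028 after correction for GC content and transcript length.

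Levels of different genes were set side by side only per length, as normalized counts per kb of the longest GENCODE M21 transcript, averaged over the 8 mice. Cck was highest with 3712 ± 372.2 (SD, n = 8), followed by Sst with 1416 ± 249.7, Gad1 with 1291 ± 96.6 and Npy with 622.5 ± 74.8. On this length Sst and Gad1 did not differ beyond their spread, since Sst was the higher in 5 of the 8 mice. Pvalb was next with 413.9 ± 36.1, close to Gad2 with 384.8 ± 26.3, which it exceeded in 5 of the 8 mice. Reln followed with 335.8 ± 66.7, below Gad2 in 7 of the 8 mice. Slc32a1 had 126.2 ± 15.8 and Vip 117.8 ± 38.9, with Slc32a1 the higher in 4 of the 8 mice, and Lhx6 was lowest with 51.6 ± 7.58. With the total length of all exons in place of the longest transcript, Gad1 was at 608.5 ± 45.5, next to Npy (622.5), and Reln at 165.5 ± 32.9 (SD, n = 8). Sst then stood above Gad1, and Gad2 (376.1 ± 25.7) above Reln, by more than their spread, so that those overlaps hold for the longest transcript only. Npy moved above Gad1, and the order was otherwise the same.

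**Figure D3:**
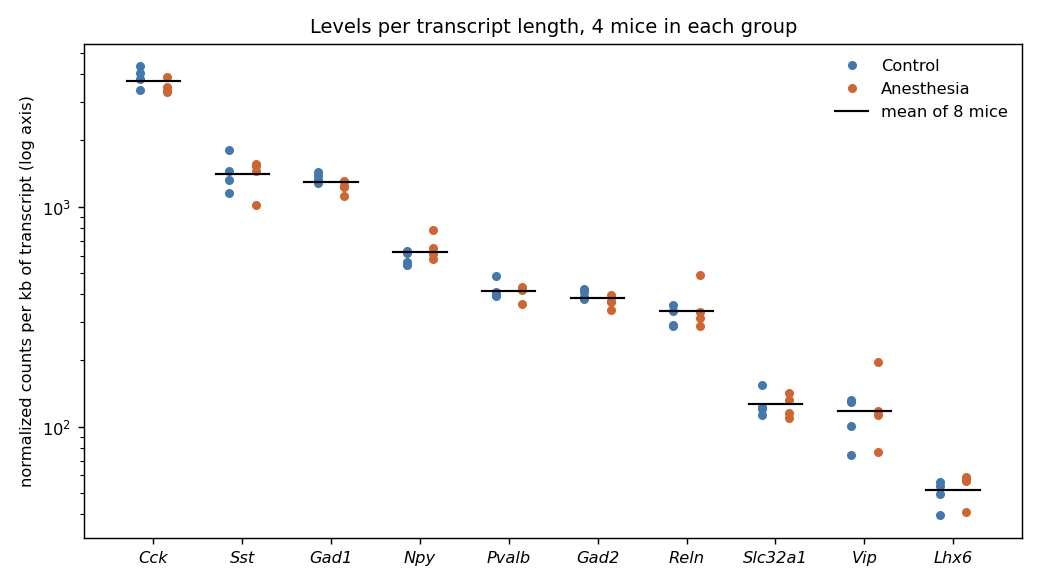
Normalized counts per kb of the longest transcript (vertical log axis) for the 10 genes in descending order, with 1 point per mouse (Control blue, Anesthesia orange) and a line at the mean of the 8 mice. Cck is highest at 3712 and Lhx6 lowest at 51.6. On this length Sst overlaps with Gad1, Pvalb with Gad2 and with Reln, Gad2 with Reln, and Slc32a1 with Vip.

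The subtype genes were also expressed relative to GABA synthesis, as the log2 value of each gene minus the mean log2 value of Gad1, Gad2 and Slc32a1 in the same mouse. Relative to these genes Pvalb stood at -1.89 ± 0.136 in Anesthesia and -1.95 ± 0.207 in Control mice (± SD, 4 mice each). For Sst the values were -0.58 ± 0.252 and -0.63 ± 0.342. The groups thus lay closer together than their SD for both genes. Vip stood at -2.29 ± 0.544 and -2.55 ± 0.471, and Lhx6 at -3.00 ± 0.217 and -3.20 ± 0.313. Npy stood at -2.00 ± 0.237 in the Anesthesia and -2.25 ± 0.179 in the Control mice. It was the only one of the 7 subtype genes whose group difference (0.25) was larger than the SD of both groups. That held against Gad1 alone (0.29), but not against Gad2 alone, with 0.267 and an SD of 0.276 in the Anesthesia mice. Anesthesia replicate 3 had the highest relative value of Npy, -1.73, against -2.30 to -1.95 in the other Anesthesia mice. The difference without that mouse was not computed. The log2 fold change of Npy itself was 0.15 with all mice and 0.059 without Anesthesia replicate 3. Those of Gad1, Gad2 and Slc32a1 were below 0 with all mice. The relative values are descriptions without a test, because the genes were chosen with results of these data known.

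The spread between single mice was widest for Vip, Sst, Reln and Lhx6. Over the 8 mice the SD of the log2 values was 0.45 for Vip, 0.26 for Sst, 0.26 for Reln and 0.23 for Lhx6, against 0.17 for Slc32a1, 0.16 for Npy, 0.14 for Cck, 0.12 for Pvalb, 0.11 for Gad1 and 0.099 for Gad2, and the median over all genes tested was 0.20. Anesthesia replicate 3 was the highest of the 8 mice for 4 genes (Vip, Npy, Reln and Lhx6) and the lowest for 2 (Gad2 and Cck). Control replicate 3 was the lowest for Vip, Npy and Lhx6 and the highest for Gad1 and Slc32a1. Anesthesia replicate 2 was the lowest for Gad1, Sst and Reln.

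**Figure D4:**
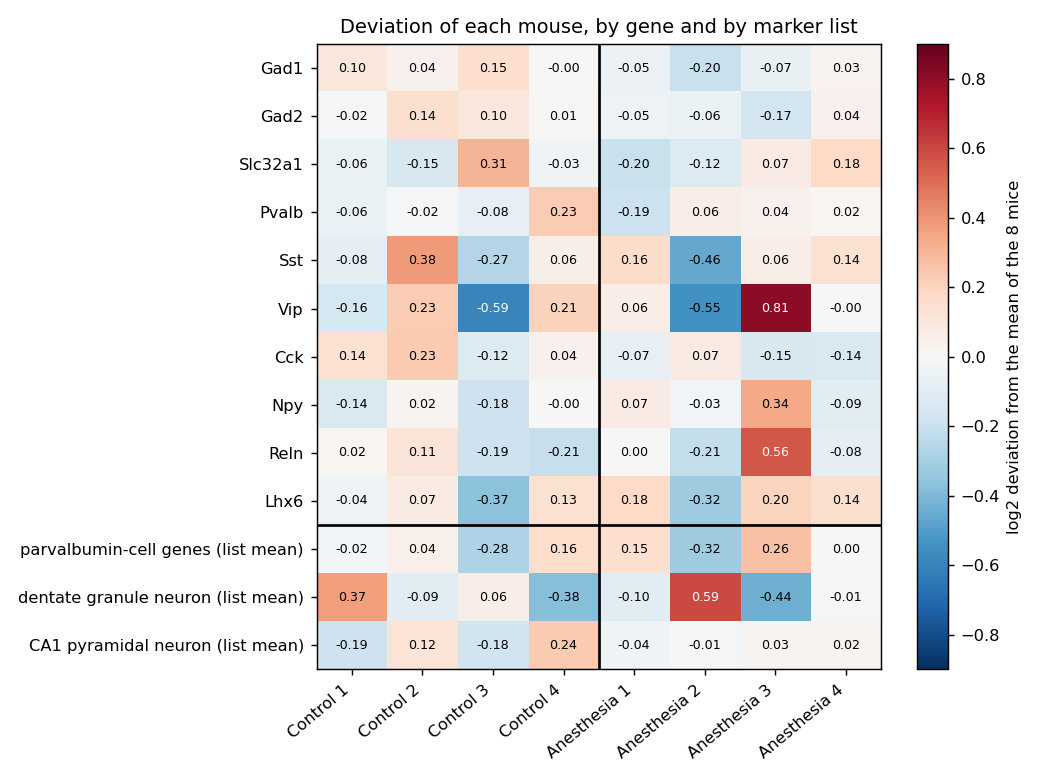
Log2 deviation of each mouse (columns, Control left and Anesthesia right) from the mean of the 8 mice for the 10 genes and, below the line, for 3 marker lists, with red above and blue below that mean. Vip runs from -0.59 in Control replicate 3 to 0.81 in Anesthesia replicate 3, and Pvalb stays between -0.19 and 0.23.

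Vip and Lhx6 were low together in the same mice, Anesthesia replicate 2 and Control replicate 3. Over the 8 mice, Pearson's r between Vip and Lhx6 was 0.87 (Spearman's rho 0.79), and without those mice it was 0.63. Sst and Lhx6 had an r of 0.83 (rho 0.67), which rested on the same mice, since r was 0.24 without them. Pvalb did not share this pattern, with an r of 0.09 with Lhx6, 0.22 with Vip and -0.098 with Sst. The values of a library share its depth and its dissection, 45 pairs were computed, and the correlations are given as descriptions.

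**Figure D5:**
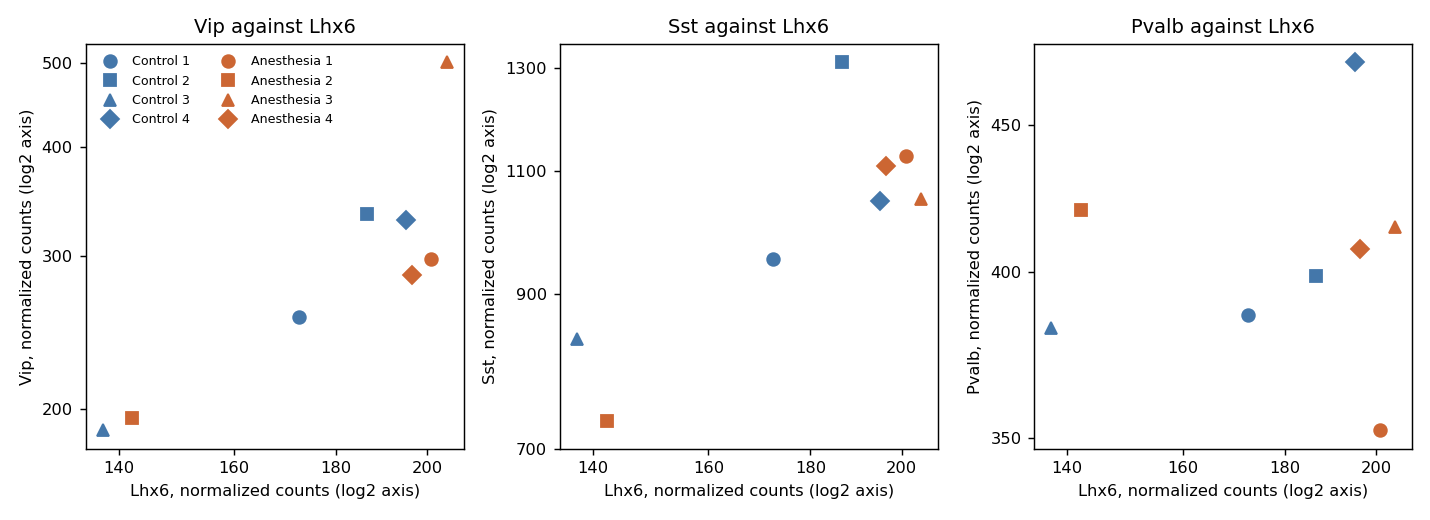
Vip, Sst and Pvalb (vertical log2 axes, normalized counts) against Lhx6 (horizontal log2 axis, normalized counts), with 1 point per mouse. Anesthesia replicate 2 and Control replicate 3 are lowest for Lhx6 (142.2 and 137.5), Vip (195.0 and 188.9) and Sst (732.5 and 836.6). For Pvalb, Control replicate 3 is the lowest of the Control mice (382.2), but Anesthesia replicate 2 is the highest of the Anesthesia mice (420.4).

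The level of dentate granule neuron genes also varied between mice. The mean of 10 dentate granule neuron genes was highest in Anesthesia replicate 2 (0.59 on the log2 scale above the mean of the 8 mice) and Control replicate 1 (0.37), and lowest in Anesthesia replicate 3 (-0.44) and Control replicate 4 (-0.38). Pearson's r with this list over the 8 mice was -0.80 for Vip (rho -0.86) and -0.71 for Lhx6 (rho -0.81), and -0.83 and -0.59 without Anesthesia replicate 2 and Control replicate 1. For Sst it was -0.65 (rho -0.60) and rested on those mice, with -0.15 without them, and for Pvalb it was -0.26 (rho -0.17). Control replicate 3, one of the mice low for Vip, Sst and Lhx6, stood near the average for this list (0.058). With the list as a covariate, added after seeing the data, the log2 fold change of Vip was 0.18 (SE 0.17) in place of 0.16 (SE 0.27), that of Lhx6 was 0.11 (SE 0.13) and that of Sst was -0.036 (SE 0.13). The list itself overlapped between the groups, with summed levels of 10814.9 to 20660.8 normalized counts in the Anesthesia mice and 12060.9 to 18120.4 in the Control mice.

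The genes whose pattern over the 8 mice was most like that of Pvalb, of 12248 genes with a mean of at least 100, were Slx4ip (Pearson's r = 0.93), Tjap1 (0.921), Sap130 (0.919), Gm42898 (0.907) and Inpp5d (0.904). None of the 14 other parvalbumin-cell genes was among these 5. Those with a mean under 100 were not candidates, and 5 places among 12248 genes are few, so this absence says little. The mean of the parvalbumin-cell list had an r of 0.11 with Pvalb, 0.95 with Lhx6 and 0.93 with Vip. Of the marker lists, that of microglia had the r furthest from 0 with Pvalb, 0.88 (rho 0.88), and 0.67 without Control replicate 4 and Anesthesia replicate 2.

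Other genes of the interneuron lineages were compared in lists that were set down with earlier results of these data known, and limma called 0 genes in each of them after adjustment. Without adjustment, p was under 0.05 for 4.75% of all genes tested with a higher and 3.27% with a lower mean in the Anesthesia mice. Of 5 MGE-lineage transcription factors tested, 4 had higher means in the Anesthesia mice, and the median of the list was 0.18 on the log2 scale. Satb1, a chromatin organizer of maturing MGE interneurons, had a log2 fold change of 0.49 (SE 0.24, limma adjusted p = 0.636), with its highest value, 2874 normalized counts, in Anesthesia replicate 3. Maf, a transcription factor chosen here after its values were seen, had 389.2 ± 28.9 against 344.0 ± 24.9 normalized counts (± SD, 4 mice each). Its log2 fold change was 0.18 (SE 0.088, limma adjusted p = 0.636). The groups did not overlap for Maf, as for 5.04% of all genes tested, and after that choice this is a description only. The 10 microglia markers had a median of 0.034 on the log2 scale, and their summed level was 6297.6 to 7112.0 in the Anesthesia mice and 6270.3 to 7376.2 in the Control mice.

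Of 14 parvalbumin-cell genes, 8 had higher means in the Anesthesia group, 1 at an unadjusted p under 0.05, and the median log2 fold change was 0.044. Kcnc1, which encodes the fast potassium channel Kv3.1, had 1469 ± 220.0 normalized counts against 1208 ± 133.1 (± SD, 4 mice each), a log2 fold change of 0.28 (SE 0.11, limma adjusted p = 0.62). Nefh, a neurofilament gene, had a log2 fold change of 0.15 (SE 0.087, limma adjusted p = 0.675). Of 9 somatostatin-cell genes, 0 passed at that unadjusted p in limma in either direction, with a median of -0.049. Nos1, which encodes neuronal nitric oxide synthase, had a log2 fold change of 0.24.

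Of 10 VIP- and CCK-cell genes, 7 had lower means in the Anesthesia group and 1 passed at an unadjusted p under 0.05 in limma, with a median log2 fold change of -0.13. That gene was Calb2, which encodes calretinin, with 369.6 ± 132.4 normalized counts against 498.8 ± 47.9 (± SD, 4 mice each) and a log2 fold change of -0.50 (SE 0.22, limma adjusted p = 0.622; exact permutation p = 0.143, two-sided). The cannabinoid receptor gene Cnr1 followed with -0.096. Of 6 neurogliaform genes, 1 was higher at an unadjusted p under 0.05, Id2 (log2 fold change 0.21, SE 0.084, limma adjusted p = 0.62), and Nos1 was next. This list was mixed in direction, with 4 genes above 0, 2 below and a median of 0.15. Of 6 Cajal-Retzius genes tested, the unadjusted p was under 0.05 for 2, both lower, Ebf3 and Calb2. Calb2 is the same gene as in the VIP- and CCK-cell list. The Cajal-Retzius list was mixed too, with 2 genes above 0, 4 below and a median of -0.26. Ebf3 had only 16.6 ± 5.68 normalized counts against 32.2 ± 10.9 (± SD, 4 mice each), with a log2 fold change of -0.90 (SE 0.31, limma adjusted p = 0.62).

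In the remaining lineage lists no gene had an unadjusted limma p under 0.05. The 8 pan-interneuron transcription factors had a median log2 fold change of -0.025, with Dlx2 at -0.82 (SE 0.49) and Dlx6 at -0.61 (SE 0.50), at 17.3 and 26.7 normalized counts on average over the 8 mice. Dlx6 is uncertain because it overlaps its antisense partner Dlx6os1. The 6 CGE-lineage genes, which mark cells from the caudal ganglionic eminence, had a median of -0.095, with Htr3a at -0.20 and Nr2f2 at -0.28. The 7 other genes of GABA handling had a median of 0.10, with the GABA transaminase gene Abat at -0.10 and the glutamine transporter gene Slc38a1 at 0.12.

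The 14 genes tested for receptors of these peptides and of reelin include an adaptor of reelin signaling. At an unadjusted limma p under 0.05, 2 of the 14 passed, both higher in the Anesthesia group. Of all genes tested, 4.75% were higher at that p. The median log2 fold change of the 14 was 0.071. Lrp8, the reelin receptor ApoER2, had 1229 ± 138.6 normalized counts against 1033 ± 77.9 (± SD, 4 mice each), a log2 fold change of 0.25 (SE 0.091, limma adjusted p = 0.62; exact permutation p = 0.0857, two-sided). The somatostatin receptor gene Sstr2 had 210.8 ± 45.6 against 161.7 ± 21.4 normalized counts (± SD, 4 mice each), a log2 fold change of 0.37 (SE 0.16, limma adjusted p = 0.622). The VIP receptor gene Vipr1 came next, with a log2 fold change of 0.36 (SE 0.17, limma adjusted p = 0.636).

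The markers of the hippocampus itself were present in every library, with summed levels of 17152.7 to 21234.9 normalized counts for 9 CA1 pyramidal neuron genes. The median log2 fold change was -0.049 for these, -0.019 for the dentate granule neuron list, -0.056 for 10 astrocyte, -0.065 for 10 oligodendrocyte and -0.0067 for 10 endothelial genes. Markers of neighboring tissue that also holds GABAergic neurons were compared as well. The 11 striatal markers tested had a median log2 fold change of 0.14, with 1 gene higher and 1 lower at an unadjusted limma p under 0.05, and summed levels of 2795 to 3688 normalized counts in the Anesthesia and 2759 to 3071 in the Control mice. The 10 thalamic markers tested had a median of 0.013, with 0 higher and 1 lower. With the striatal list as a covariate the log2 fold change of Gad1 was -0.15 (SE 0.058). With the thalamic list as a covariate Gad1 was at -0.13 (SE 0.062) and had an unadjusted p above 0.05, Cck was at -0.18 (SE 0.072) and had one under 0.05, and Slc32a1 turned to 0.020 (SE 0.10), while limma called none of the 10 genes after adjustment with either list.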

How the data were processed

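Hippocampal RNA-sequencing of 8 mice was analysed, 1 library per mouse. The authors deposited normalized counts, a signal made by estimating transcript abundance with Salmon 1.1.0 on GRCm38 with GC bias correction, summarising it per gene with tximport in R 3.5.3 and dividing by DESeq2 1.30.1 size factors. The annotation release is not given in the sources used here. The labels and the paper name different TruSeq kits, so strand is unsettled. Column totals were 18702634 to 19231119. The spacing of low values put the depth at approximately 15500000 to 22200000 reads per library, but only 61.7% to 75.7% of low values were within 0.1 of a whole read, so no count model was fitted.

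Symbols and positions came from GENCODE M21, which held 20784 of the identifiers. Normalized counts were compared with limma 3.58.1 in R 4.3.3 (log2 with a pseudocount of 1, mean-variance trend, Benjamini-Hochberg adjustment over 18865 genes, threshold 0.05), after 1937 genes with a mean under 10 were left out. The script was tested on simulated data. The 10 genes and all lists were chosen with earlier results of these data known. Besides the 10 genes, those named are the 2 with the smallest unadjusted p of each interneuron list, 3 receptors and the 5 genes most like Pvalb, apart from genes that are not reported here. No 2 libraries were alike (SD of log2 ratios 0.45 to 0.672). Alternatives were other scalings, filters and pseudocounts, limma voom, a robust spread, the replicate block, a loess correction for GC content and transcript length, tissue covariates and each mouse left out.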

Additional observations from a re-analysis of the deposited data

Results flagged for a closer look

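Among 66 groups of 4 mice, made of the 10 genes, 4 of them relative to GABA synthesis and the marker lists, 2 held a mouse far from the other 3, where about 3.3 would be expected by chance at 1 in 20. For Lhx6, Anesthesia replicate 2 lay at 142.2 normalized counts against 196.5 to 204.5 in the other 3 (gap over range 0.87). In the Control group, replicate 4 stood at 0.14 for the mean of the microglia list on the log2 scale, against -0.081 to -0.055 in the others (gap over range 0.886), and it also had the highest Pvalb, 473.4 normalized counts. All mice were kept.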

How the results depend on the processing

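In limma 0 of the 10 genes had an adjusted p under 0.05 under every alternative run, and the lowest adjusted p was 0.473. Of all genes, 0 had an adjusted p under 0.05, apart from 2 without Control replicate 1 (range 0 to 2 over the mice left out). At an unadjusted p under 0.05 the 10 genes gave 1, Gad1, and 0 with upper quartile scaling, the replicate block, the correction for GC content and transcript length with or without that block, or the choroid plexus covariate, and 0 to 1 with each mouse left out. With the thalamus covariate, or without Anesthesia replicate 2 or Control replicate 3, the 1 gene was Cck. Gad1 was lower in every fit, from -0.18 without Anesthesia replicate 4 to -0.10 without Anesthesia replicate 2.

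Of 140 values of single genes, 4 turned direction, namely Reln with the correction for GC content and transcript length without and with the replicate block (-0.0028 in both), Sst with the choroid plexus covariate (0.0066) and Slc32a1 with the thalamus covariate (0.020). With each mouse left out the ranges of genes that turned were -0.0998 to 0.063 for Slc32a1, -0.071 to 0.031 for Pvalb, -0.14 to 0.098 for Sst, -0.085 to 0.37 for Vip, -0.031 to 0.23 for Reln and -0.0032 to 0.23 for Lhx6. The causes were not tested. The dentate granule neuron covariate was chosen after seeing the data and turned no direction.

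Whether replicate numbers pair the mice is not settled. Deviations correlated at -0.242, -0.109, -0.182 and 0.0194 within numbers, but pairs of different numbers were not compared. Under the replicate block 1084 genes passed without adjustment, against 1513. Of the genes that passed without adjustment in the main fit, 59.3% were higher in the Anesthesia group. That share was 63% under the replicate block, 51.2% when scaled to the same total, 51.4% with limma voom and 48.1% with the GC content and length correction.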
